A study of Mus musculus with 6 samples.

Results

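The centromere-proximal ends of mouse autosomes were examined for 5-hydroxymethylcytosine (5hmC), the oxidised form of methylated cytosine that the Tet enzymes make. The ends were taken as all regions of the count table on chromosomes 1 to 19 except chromosome 11 that start before position 3600000. Autosome sequence in this assembly begins near 3000000, so each end is about the first 600 kb of sequence next to the centromere. Of 192196 regions in the table, 634 lay in the 18 ends. They comprised 16 pile-ups, regions that averaged 1000 counts or more over the libraries, and 618 other regions. The pile-up limit fell in a wide gap, since the smallest pile-up had a mean count of 1919 and the highest of the other regions had 584.

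Reads came from Tet1 constitutive knockout (KO) mice and wild-type (WT) mice, with 2 libraries of each (KO1 and KO2, WT1 and WT2). GEO's labels name the material as brain, while the study's text describes cultured astrocytes, the star-shaped glia, taken from the cortex and hippocampus of newborn pups. A constitutive knockout lacks Tet1 in every cell type and from the start of development. Strain and pooling of animals are not given in the sources used here, and nothing says that the samples came from separate cultures, so p-values measure only the spread between these samples. Cell type markers could not be examined, because regions were not assigned to genes, and for the same reason the loss of Tet1 itself was not checked.

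Mouse autosomes carry the centromere at one end. The DNA around it consists of long arrays of satellite repeats, the minor satellite at the centromere itself and the major satellite in the flanking heterochromatin. Their CpG sites are normally heavily methylated, and methylated cytosine is the substrate of Tet1, Tet2 and Tet3. Most of each array is missing from genome assemblies. Past the arrays the sequence becomes ordinary chromosome with genes. In the RefSeq order of genes on GRCm38.p6, a later build than that of the table, the protein-coding gene nearest the centromere was Insr (the insulin receptor) on chromosome 8, Cdk6 (a cell cycle kinase) on chromosome 5 and Scaf8 on chromosome 17. On chromosome 4 it was Vmn1r2, a vomeronasal receptor gene. These names give only the neighbourhood, and no region was placed inside a gene. No genome of the table's build was used here, so no sequence of these regions is shown, and whether a pile-up holds satellite sequence was not examined.

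Total counts ran from 16819455 in WT1 to 19288900 in WT2. KO2 stood apart from the other libraries. Over the 548 end regions left outside pile-ups by the low-count filter, its counts gave a Spearman rho of 0.657 with KO1, 0.694 with WT1 and 0.705 with WT2. Among the other 3 libraries rho ran from 0.735 to 0.815. These are descriptions over regions of the same libraries. KO2 also held 46 counts on chromosome Y, against 1765 in KO1, 5353 in WT1 and 4420 in WT2. The part that this difference between the KO libraries has in the results below was not tested, and results are given without each KO library where it changes them.

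The pile-ups were confined to 2 of the 18 ends, with 15 on chromosome 9 and 1 on chromosome 12. They were 0.00832% of the regions of the table, but held 1.87% of the reads counted for KO1 (95% interval by Wilson, 1.86 to 1.87) and 6.27% for KO2 (6.25 to 6.28). In WT they took 2.90% for WT1 (2.89 to 2.91) and 5.85% for WT2 (5.84 to 5.86). KO2 and WT2 thus exceeded KO1 and WT1, and the ranges of the genotypes crossed. Only counting error enters these intervals, and they treat every read as independent. Copies of 1 molecule may be counted more than once, which would make the intervals too narrow.

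On chromosome 9 the pile-ups began at position 3000032, next to the first sequenced base, and ended at 3038305, a stretch of 38274 bp of which regions covered 13779 bp. The strongest was the outermost, chr9:3000032-3002631. It held 99688 counts for KO1 and 358349 for KO2, beside 150006 for WT1 and 346342 for WT2. The WT counts thus lay between those of the KO libraries. The weakest of the 15, chr9:3026300-3026704, held 823, 2896, 1194 and 2761 counts in the same order, and so ranked the libraries in the same way. Beyond the stretch no region was listed for 97740 bp, and the 5 remaining regions of this end had mean counts from 0 to 40.5. The chromosome 9 end was therefore a block of pile-ups beside one of the sparsest sets of ordinary regions.

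**Figure D1:**
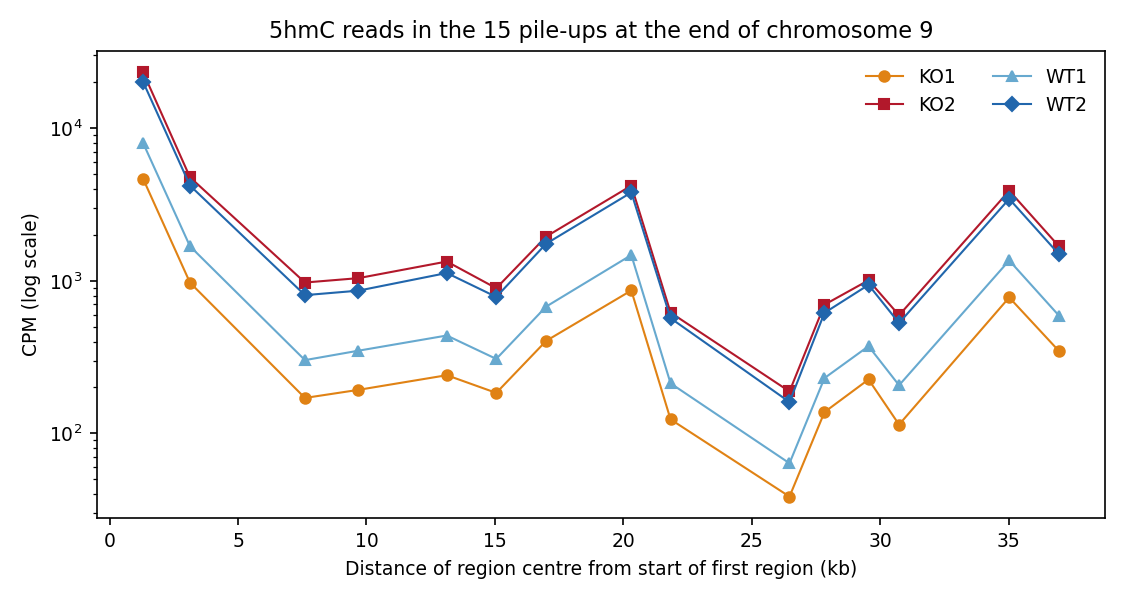
Counts per 1000000 of the scaled library size (CPM, log axis) in each of the 15 pile-ups at the end of chromosome 9, by distance in kb from the start of the first region. Each line is 1 library. The 4 lines run nearly in parallel, with KO2 highest and KO1 lowest at every pile-up.

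The chromosome 12 pile-up, chr12:3109719-3110270, was the most intense of the 16, with a mean of 537194 counts per kb of width. It held 122795 counts for KO1 and 459676 for KO2, beside 183031 for WT1 and 420622 for WT2. The nearest listed regions on both sides held far fewer counts. The region before it, chr12:3101920-3102296, had 34, 45, 17 and 38 counts in the same order, and the next region, chr12:3110565-3111243, had 484, 264, 249 and 253. In that neighbour KO1 was the highest library, whereas in the pile-up it was the lowest.

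The 16 pile-ups kept nearly fixed proportions to each other in every library. The chromosome 12 pile-up made up 37.8% of their counts in KO1, 38.8% in KO2, 37.5% in WT1 and 37.3% in WT2. The outermost chromosome 9 pile-up made up 30.7%, 30.3%, 30.8% and 30.7%. For none of the 16 did the share differ between any 2 libraries by more than 1.55 percentage points. What differed was the total. In counts per 1000000 of the scaled library size (CPM; scaling by TMM, a trimmed mean over regions), the pile-ups summed to 15224 CPM in KO1 and 77012 CPM in KO2, and to 26059 CPM for WT1 and 65667 CPM for WT2. The ratio of library 2 to library 1 was 5.06 in KO and 2.52 in WT. Over single pile-ups it ran from 4.46 to 5.70 in KO and from 2.47 to 2.67 in WT.

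Outside the ends, 36 regions of the table averaged 1000 counts or more. Of these, 31 averaged under 10000, as did 6 of the end pile-ups, and their median ratio of library 2 to library 1 was 1.34 in KO and 1.10 in WT. The ratios of these 31 ran from 0.379 to 4.48 in KO and from 0.911 to 2.78 in WT, and the highest of both was at chr2:98503787-98504280. The 31 included regions of chromosome X and of mitochondrial DNA, and the 0.379 was at chrM:3896-5608. For the 27 on autosomes the KO ratios ran from 0.840 to 4.48, with a median of 1.37 in KO and 1.10 in WT. The other 5 of the 36 averaged 10000 counts or more, a limit chosen after their values were seen. Among them, chr9:35112652-35113320 had ratios of library 2 to library 1 of 5.09 in KO and 2.43 in WT, and chr2:98506383-98507540, the region of highest count in the table, had 4.83 and 2.39. The remaining 3 had ratios of 3.71 and 2.09 at chr2:98502339-98503189, 2.80 and 1.95 at chr2:98505049-98505414, and 2.38 and 1.92 at chr6:103598891-103599437. In all 5 library 2 was above library 1 in both genotypes, but the last 3 lay below the range of the end pile-ups in KO, and all 5 lay below it in WT.

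**Figure D2:**
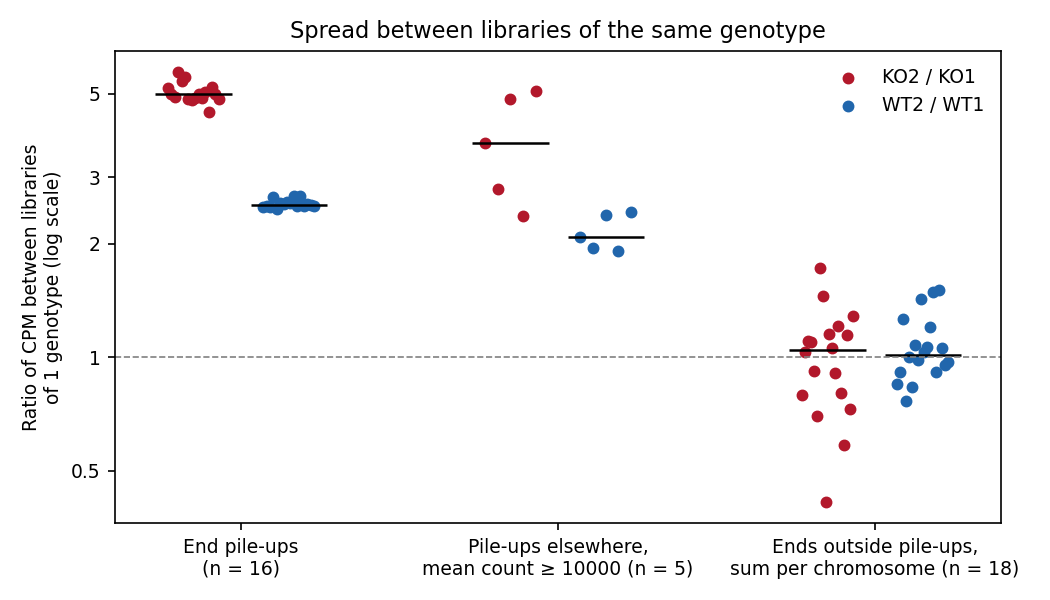
Ratio of CPM in library 2 to library 1 of the same genotype (log axis), for the 16 end pile-ups, the 5 regions elsewhere averaging 10000 counts or more, and the summed CPM outside pile-ups in each of 18 ends. Points are regions or ends and the black bar is their median. The end pile-ups lie at 4.46 to 5.70 in KO and 2.47 to 2.67 in WT, while the ends outside pile-ups scatter around 1.

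To ask whether reads in the pile-ups differed between KO and WT, each region was tested between genotypes in a fit over the whole table. The counts came from the 5hmC libraries alone. Since the 2 inputs were not analysed, background reads in the pile-ups were not told apart from 5hmC. With edgeR's quasi-likelihood test, 0 of the 16 pile-ups reached a Benjamini-Hochberg adjusted p under 0.05. Without adjustment the count was also 0. Over all 176957 regions tested, 0% passed at adjusted p and 2.81% had an unadjusted p under 0.05. The log2 differences of the pile-ups (the fitted log2 of KO over WT) ran from -0.09 to 0.06, with standard errors from 0.53 to 0.96. These errors were calculated back from edgeR's test statistic, and those fitted by DESeq2 for the same pile-ups ran from 0.93 to 1.24. For chr12:3109719-3110270 the mean was 17822 ± 17062 CPM over the KO libraries, beside 17122 ± 10384 CPM over the WT libraries (SD, n = 2 each), a log2 difference of 0.06 (SE 0.96). For chr9:3000032-3002631 it was 13986 ± 13170 CPM over the KO libraries, beside 14079 ± 8577 CPM over the WT libraries (SD, n = 2 each), a log2 difference of -0.01 (SE 0.91). The groups overlapped in both. A mean difference near 0 with errors of this size leaves changes of about the spread between libraries undetectable.

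The direction in every pile-up changed with the library left out, in either genotype. Without KO1, edgeR's test called all 16 higher in KO, with log2 differences from 0.62 to 0.82 and adjusted p from 0.00102 to 0.0196. In that fit 7.52% of all regions tested were called. Without KO2 the test called all 16 lower in KO, with log2 differences from -1.70 to -1.54 and adjusted p from 1.62e-14 to 1.71e-11, where 1.09% of all regions were called. In these fits the lone KO library is assumed to vary like the WT pair. Without WT1 the log2 differences ran from -0.61 to -0.45 and without WT2 from 0.73 to 0.92, and 0 of the 16 were called in either fit.

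Outside the pile-ups, the ends held narrow regions of modest counts. The 618 regions had a median width of 417 bp and a median mean count of 41.8, against 437 bp and 46.5 for the 189447 autosomal regions outside pile-ups. In 16.7% of them the mean count was at least 100, against 19.9% of the autosomal regions. A count of 0 in at least 1 library occurred in 7.12% of them, against 4.87%. In 3 of the 618 the count was 0 in all 4 libraries. Such a count allows up to 3 reads per library, or 0.141 CPM in KO1 and 0.195 CPM in KO2. These are descriptions and the ends were not tested against other sequence.

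The number of regions differed widely between ends. Chromosome 17 had 79 and chromosome 5 had 77, followed by chromosome 8 with 60, chromosome 10 with 51 and chromosome 2 with 49. Chromosomes 9 and 14 had 5 each outside pile-ups, chromosome 3 had 15, and chromosomes 13 and 16 had 16 each. The median over the 18 ends was 30.5 regions, against 41 in the 3998 other autosomal windows of 600 kb, whose middle range ran from 15 to 73. In 12 ends the number was below that median. The next 600 kb inward had a median of 25.5 regions, with more regions than the end on 9 chromosomes and fewer on 9, so the numbers showed no steady rise away from the centromere on this scale.

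**Figure D3:**
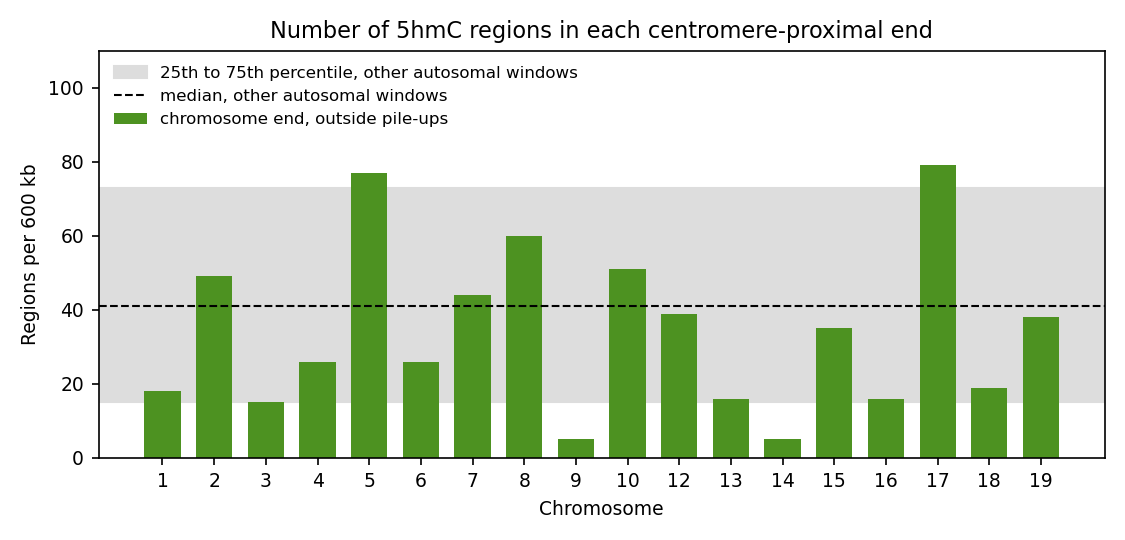
Number of regions outside pile-ups in each 600-kb end (bars), by chromosome. The dashed line is the median of the other autosomal windows (41) and the grey band their 25th to 75th percentile (15 to 73). Chromosomes 17 and 5 stand above the band, and chromosomes 9 and 14 below it.

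Within the ends, regions outside pile-ups were fewer closest to the sequence start. Summed over the 18 chromosomes, the first 100 kb held 51 such regions on 12 chromosomes, and the following 100 kb held 74. The 15 pile-ups of chromosome 9 also lay in the first 100 kb, and that of chromosome 12 in the following 100 kb. With pile-ups counted, 13 chromosomes had a region in the first 100 kb. From 200 to 300 kb there were 129 regions, from 300 to 400 kb 139, from 400 to 500 kb 129 and from 500 to 600 kb 96. The median CPM per region stayed between 1.99 and 2.50 in these 6 bins. The outermost region of each end lay between position 3000032 on chromosome 9 and 3149991 on chromosome 7. Leaving out the chromosome 9 pile-up, it held few reads, with the lowest mean count of 0.750 on chromosome 19 and the highest of 78.3 on chromosome 18. Of the 12 outermost regions that passed the low-count filter, the chromosome 9 pile-up included, 3 had an unadjusted p under 0.05 by edgeR and 0 passed the adjusted threshold, beside 2.81% and 0% of all regions tested.

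After TMM scaling, the summed 5hmC signal outside pile-ups was nearly equal in the 4 libraries. This scaling evens out the typical region between libraries. The sums here and in single ends below therefore cannot show a change of 5hmC over the whole genome. By dot blot, the paper reports a significantly lower global level of this mark in KO than in WT astrocytes. KO1 had 2130 CPM and KO2 had 2351 CPM, while WT1 had 2147 CPM and WT2 had 2152 CPM. The mean was 2241 ± 156 CPM over the KO libraries, beside 2150 ± 3.47 CPM over the WT libraries (SD, n = 2 each), a log2 ratio of 0.06. KO1 lay below both WT libraries and KO2 above both, so the groups overlapped, and without KO2 the log2 ratio was -0.01. With 2 libraries a group, the smallest two-sided p of an exact permutation test is 0.333, and no test of this sum is given. In KO2 and KO1 the sums differed 1.10-fold, where the pile-ups of the same ends differed 5.06-fold. Over the whole table without pile-ups the sums were 720731 CPM in KO1, 778053 CPM in KO2, 736737 CPM in WT1 and 737106 CPM in WT2. That was a log2 ratio of 0.02. As unscaled shares of all counts, the end sums outside pile-ups were 0.261% in KO1, 0.191% in KO2, 0.239% in WT1 and 0.192% in WT2.

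**Figure D4:**
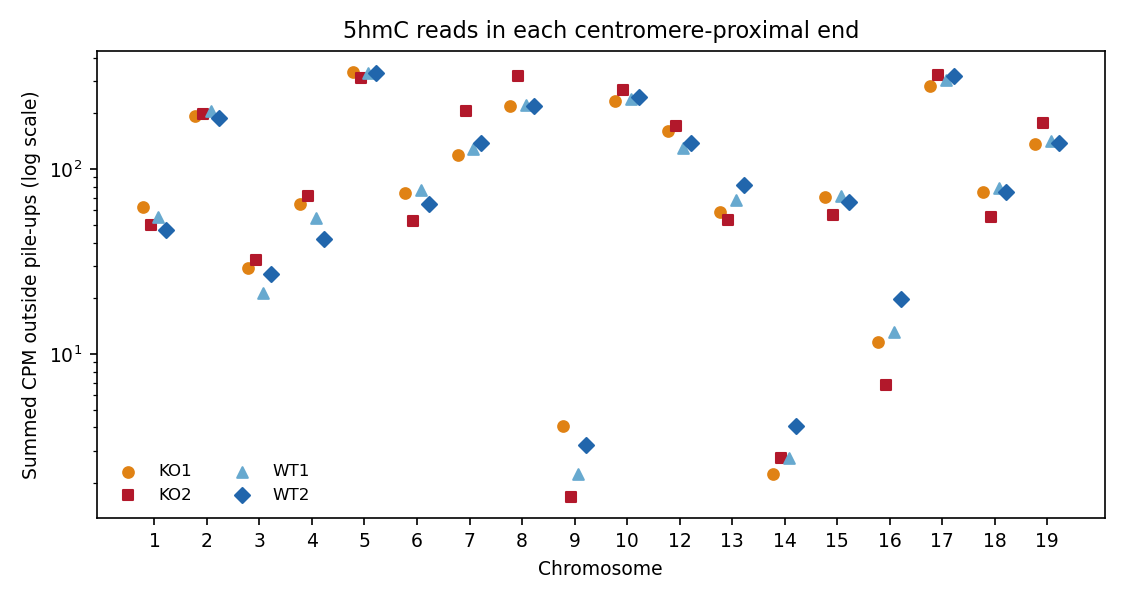
Summed CPM outside pile-ups (log axis) in the end of each chromosome, with 1 point per library. The libraries lie close together on most ends, with both KO libraries above both WT libraries on chromosomes 3, 4 and 12 and below both on chromosomes 13 and 16.

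The ends of single chromosomes were then tested as sums over 600-kb windows of the whole genome. With edgeR's test, 0 of the 18 ends reached an adjusted p under 0.05. Without adjustment the count was also 0. Over the 4155 windows tested, 0% passed at adjusted p and 0.554% at unadjusted p. Without pile-ups in the sums, the lowest unadjusted p among the ends was 0.0554. By CPM outside pile-ups, both KO libraries lay above both WT libraries in 3 ends and below both in 2, where this held for 7.59% and 10.4% of all windows.

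On chromosome 12, the sum outside the pile-up was 160 CPM in KO1 and 170 CPM in KO2, and 130 CPM for WT1 and 138 CPM for WT2. Its log2 difference was 0.32 (SE 0.13; edgeR adjusted p 1.00). On chromosome 4 the sums were 65.0 and 71.2 CPM in KO against 54.2 and 41.6 CPM in WT, which gave a log2 difference of 0.53 (SE 0.22; edgeR adjusted p 1.00). On chromosome 3 they were 29.0 and 32.1 CPM in KO against 21.5 and 27.2 CPM in WT. Leaving out each library moved the log2 difference from 0.37 (without WT2) to 0.71 (without WT1) on chromosome 4, and from 0.17 (without WT1) to 0.55 (without WT2) on chromosome 3. The groups did not overlap in these 3 ends, but the differences did not pass the test.

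The reverse order was seen on chromosomes 13 and 16. On chromosome 13 the sums were 58.4 and 53.2 CPM in KO against 68.3 and 82.1 CPM in WT, which gave a log2 difference of -0.41 (SE 0.20; edgeR adjusted p 1.00). In CPM, the difference between the genotype means of this end lay almost wholly in chr13:3372195-3373679, described below. On chromosome 16, an end of few reads, they were 11.6 and 6.83 CPM in KO against 13.2 and 19.9 CPM in WT, which gave a log2 difference of -0.83 (SE 0.43; edgeR adjusted p 1.00). Leaving out each library moved the value from -0.55 (without WT1) to -0.25 (without WT2) on chromosome 13. On chromosome 16 it was -1.24 without KO1, -1.11 without WT1, -0.51 without KO2 and -0.48 without WT2. On chromosomes 7 and 8 only KO2 stood out. It had 207 CPM on chromosome 7 where the other libraries had 120 to 139 CPM, and 318 CPM on chromosome 8 where the others had 218 to 222 CPM.

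On chromosomes 5, 17 and 2, which all had many regions, the libraries were close. On chromosome 5 the sums were 335 and 309 CPM in KO against 331 and 331 CPM in WT, which gave a log2 difference of -0.02 (SE 0.11). On chromosome 17 they were 281 and 322 CPM in KO against 303 and 321 CPM in WT, which gave a log2 difference of -0.03 (SE 0.13). On chromosome 2 they were 192 and 198 CPM in KO against 206 and 189 CPM in WT, which gave a log2 difference of 0.00 (SE 0.12). In each of these 3 ends the groups overlapped. Without KO1, which gives 28.8% of all windows as called, 7 ends were called by edgeR at adjusted p under 0.05, 3 lower in KO on chromosomes 13, 16 and 18 and 4 higher on chromosomes 4, 7, 8 and 19. Without KO2, WT1 or WT2, 0 ends were called, beside 0.525%, 0.0715% and 0.024% of all windows, and with library totals only 0 ends were called, beside 0.0481%.

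Of the 634 regions, 564 passed the low-count filter, all 16 pile-ups and 548 others. With edgeR's test 0 of the 564 passed at adjusted p under 0.05. At unadjusted p under 0.05 there were 27 (4.79%), none of them a pile-up, where 2.81% of all regions tested reached it. Of the 27, 17 were higher and 10 lower in KO, beside 1.54% and 1.27% of all regions. In 91 of the 564 both KO libraries lay above both WT libraries, 16.1% beside 15.3% of all regions, and in 78 below both, 13.8% beside 15.6%. The median log2 difference was 0.07, against 0.02 over all regions. By DESeq2, 0 of the 564 passed at adjusted p (0.00339% of all regions did) and 19 had an unadjusted p under 0.05 (1.97%). With no low-count filter 0 of 631 passed by edgeR, beside 0.00104% of all regions, and without WT1 or WT2 0 passed, beside 0.00504% and 0.00393%. Without KO1 there were 64 regions called, 11.1% of the end regions tested beside 7.52% of all regions. Without KO2 there were 26, 4.51% beside 1.09%. In each case 16 of them were the pile-ups.

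The end regions lower in KO with the lowest unadjusted p were on chromosomes 13, 15 and 18. The region chr13:3372195-3373679 had 216 counts for KO1 and 204 for KO2, beside 429 for WT1 and 667 for WT2. Both KO libraries were below both WT libraries. The mean was 11.7 ± 2.22 CPM over the KO libraries, beside 30.9 ± 11.2 CPM over the WT libraries (SD, n = 2 each). Its log2 difference was -1.40 (SE 0.31), with edgeR p-values of 0.000402 before and 1.00 after adjustment. It was called when either KO library was left out, at -1.21 without KO1 (edgeR adjusted p 1.58e-05) and -1.60 without KO2 (3.73e-09), but not without WT1 or WT2. This region was also the strongest of its end, with a mean count of 379. In CPM, its difference between the genotype means was nearly as large as that of the whole chromosome 13 end. The end averaged 55.8 CPM in KO and 75.2 CPM in WT, so its other regions together differed little between the genotype means.

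The region chr15:3514080-3514490 was almost empty in KO. It had 6 counts in KO1 and 0 in KO2, against 52 in WT1 and 48 in WT2. In CPM this was 0.141 ± 0.199 over the KO libraries, beside 2.79 ± 0.00951 over the WT libraries (SD, n = 2 each). The log2 difference was -4.11 (SE 0.94), with edgeR p-values of 0.000477 before and 1.00 after adjustment. It too was called without KO1 (edgeR adjusted p 9.19e-06) and without KO2 (0.00469) but not without WT1 or WT2. The groups were well apart, but the fitted size depends on how a count of 0 is handled, and ran from -8.58 without KO1 to -3.28 without KO2.

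The region chr18:3005771-3006098 had the highest mean count per kb outside the pile-ups, 895 per kb. It had 324 counts for KO1 and 102 for KO2, beside 381 for WT1 and 367 for WT2. After scaling the KO mean was 10.9 ± 6.05 CPM and the WT mean 20.9 ± 0.699 CPM (SD, n = 2 each). The log2 difference was -0.93 (SE 0.35), with edgeR p-values of 0.0166 before and 1.00 after adjustment. In CPM, KO2 had 6.63 and KO1 had 15.2, beside 20.4 in WT1 and 21.3 in WT2. In both neighbours toward the centromere KO2 was again the lowest. At chr18:3004404-3005070 it had 1.95 CPM where the other libraries had 4.59 to 5.12 CPM. At chr18:3005173-3005550 KO1 was low as well, with 2.81 CPM beside 1.69 CPM in KO2, 4.59 CPM in WT1 and 4.59 CPM in WT2. For chr18:3005771-3006098 the call depended on the KO library kept, with a log2 difference of -1.65 without KO1 (edgeR adjusted p 6.93e-08) and -0.46 without KO2 (0.399). KO2 was the lowest library here and the highest in the pile-ups, while KO1 was below both WT libraries in both.

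The 3 regions higher in KO with the lowest unadjusted p were all on chromosome 4. At chr4:3149066-3149702 there were 103 counts for KO1 and 45 for KO2, beside 11 for WT1 and 18 for WT2. This was 3.88 ± 1.35 CPM over the KO libraries, beside 0.817 ± 0.325 CPM over the WT libraries (SD, n = 2 each), a log2 difference of 2.25 (SE 0.58) with an unadjusted p of 0.00126 by edgeR. At chr4:3159190-3159482 the counts were 50, 65, 14 and 11 in the same order, with a log2 difference of 2.22 (SE 0.62) and an unadjusted p of 0.0024. At chr4:3269760-3270489 they were 139, 117, 60 and 31, with a log2 difference of 1.49 (SE 0.41) and an unadjusted p of 0.00235. All 3 had an adjusted p of 1.00. Leaving out a KO library changed the calls, since edgeR called chr4:3269760-3270489 without either (adjusted p 0.0017 without KO1 and 0.0363 without KO2), chr4:3149066-3149702 without KO2 (0.000695) and chr4:3159190-3159482 without KO1 (0.00129). In each of them both KO libraries were above both WT libraries after scaling.

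The chromosome 4 end was then looked at as a whole, after these values were seen and so with no test of its own. Of its 26 regions 19 passed the low-count filter, and 7 of these had an unadjusted p under 0.05, against 2.81% over the table. The 6 higher in KO lay between 3149066 and 3330517, a stretch that held 9 tested regions. Their log2 differences ran from 0.98 to 2.25. The seventh, chr4:3010524-3010793, was the outermost region of the end and went the other way, with 17 and 11 counts in KO against 48 and 39 in WT. Farther inward no region reached an unadjusted p under 0.05. At chr4:3328427-3329325 within the stretch the counts were 288, 76, 203 and 112, and the log2 difference was 0.10 (SE 0.42), so the stretch was not uniform.

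**Figure D5:**
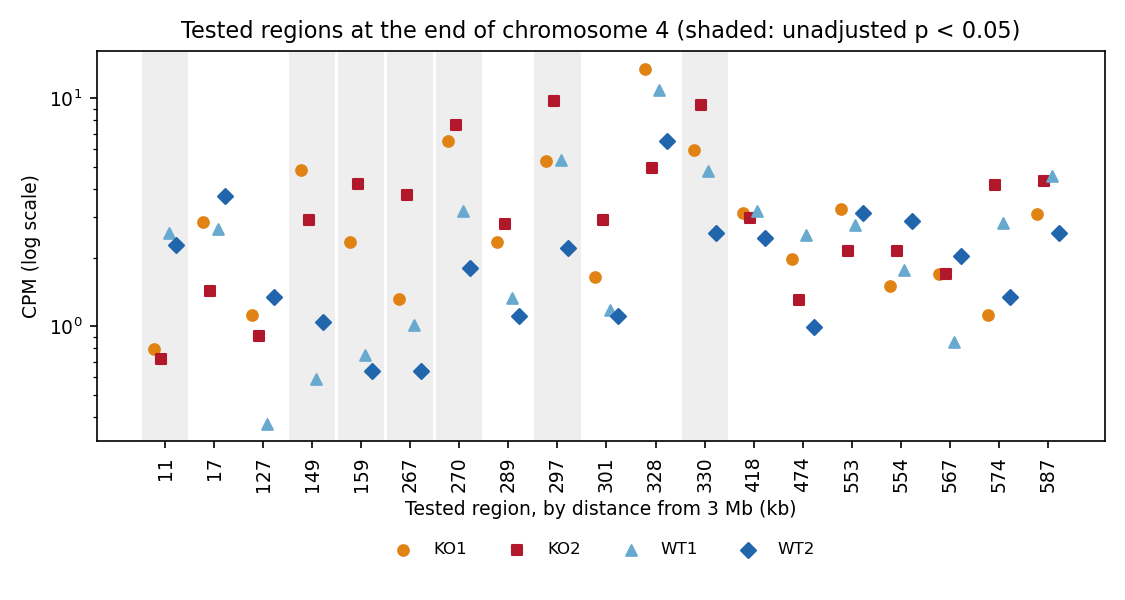
CPM (log axis) in the 19 tested regions at the end of chromosome 4, ordered by distance from position 3000000 in kb, with 1 point per library. Shaded regions have an unadjusted p under 0.05 by edgeR. In 6 shaded regions the KO mean is above the WT mean, and in the outermost region both KO points are below both WT points.

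Of the 5 regions outside pile-ups with the highest mean count per kb, the first was chr18:3005771-3006098, described above, and the other 4 had smaller differences. At chr12:3110565-3111243, beside the chromosome 12 pile-up, the mean was 19.9 ± 3.91 CPM over the KO libraries, beside 14.0 ± 0.998 CPM over the WT libraries (SD, n = 2 each), a log2 difference of 0.51 (SE 0.28). On chromosome 17, chr17:3419208-3420037 had 321, 299, 436 and 466 counts in KO1, KO2, WT1 and WT2. Its log2 difference was -0.55 (SE 0.28), beside -0.18 (SE 0.27) for chr17:3349778-3350667 and 0.05 (SE 0.29) for chr17:3081450-3082785. These 4 had an adjusted p of 1.00 by edgeR and an unadjusted p above 0.05. Of the named regions, chr17:3081450-3082785 had the highest mean count of the chromosome 17 end, with 580 and 606 counts in KO against 526 and 621 in WT, and its groups overlapped.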

How the data were processed

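The labels list 6 samples, of which the 4 5hmC libraries (2 KO, 2 WT) have a column in the table, and the 2 inputs were not analysed here. In the study, 5hmC was tagged with an azide glucose and biotin, purified and sequenced. The authors deposited raw counts per region, without normalization, for 1 shared list of regions. Per the submitters' processing notes the build is mm9 and the tools include Bowtie2 2.2.6. The region caller, the counting program, duplicate removal and the placing of reads with several matches are not given in the sources used here, and the last can set the height of pile-ups. On 9 of 22 chromosomes regions ended beyond GRCm38, so that genome gave no coordinates or sequence.

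Counts were tested with edgeR 4.0.16 in R 4.3.3 (filterByExpr, minimum count 10, minimum total 15; TMM; quasi-likelihood test of genotype) over all regions, and over counts summed in 600-kb windows, with Benjamini-Hochberg adjustment over each whole table and a threshold of 0.05. CPM are counts per 1000000 of the TMM-scaled library size. Each SE given with an edgeR log2 difference is its absolute value divided by the square root of the test's F statistic. DESeq2 1.42.0 was an alternative. Depth was 16819455 to 19288900 counts per library. Named regions were the 12 strongest pile-ups (2 described singly), the 3 of lowest p in each direction and the 5 of highest count per kb outside pile-ups, the outermost of each end, and the 18 end windows. Members and lists were chosen with earlier results of these data known. Figures were drawn with matplotlib 3.10.9.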

Additional observations from a re-analysis of the deposited data

How the results depend on the processing

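No alternative of scaling or filter called an end region at adjusted p under 0.05, a count of 0 with DESeq2, library totals only, TMM without pile-ups, no low-count filter, a mean count of at least 20 and adjusted p under 0.01, while 27 had an unadjusted p under 0.05 by edgeR and 19 by DESeq2. The count of 0 end windows stayed at 0 under all alternatives except leaving out KO1. Leaving out each library in turn gave 0 to 64 regions and 0 to 7 windows, the 64 and 7 without KO1, where 7.52% of all regions and 28.8% of all windows were called. The log2 ratio of summed CPM outside pile-ups ranged from -0.013 to 0.13, and that of the pile-ups from -1.59 to 0.82. Other limits of the ends or pile-ups moved both by less than the spread between libraries.

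The sample numbers are not said to mark a shared animal or batch. The deviations of same-numbered libraries from their genotype means had a correlation of 0.148 over 548 end regions outside pile-ups. With the number as a replicate block, 2 end regions passed, both lower in KO, where 0.0446% of all regions did. They were chr13:3372195-3373679, at -1.36 (edgeR adjusted p 0.00788), and chr15:3514080-3514490, at -4.28 (0.00956). The block and library totals only turned the sign of 5 uncalled pile-ups, all that were above 0. For the 4 among the named pile-ups they gave, in that order, -0.24 and -0.061 on chromosome 12, and on chromosome 9 -0.31 and -0.11 (start 3012800), -0.29 and -0.095 (3009352) and -0.27 and -0.075 (3007157). They also turned the uncalled windows of chromosome 9, to -0.27 and -0.14, and chromosome 12, to -0.21 and -0.056, both summed with their pile-ups. The chromosome 12 sum without its pile-up was not fitted with these alternatives. Library totals only gave -0.0024 for the chromosome 2 window, and DESeq2 gave 0.0037 for the pile-up at 3000032. The cause was not tested.

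Leaving out each library moved the log2 fold change of the chromosome 12 pile-up from -1.57 to 0.87. On chromosome 9 the ranges were -1.59 to 0.80 (start 3000032), -1.60 to 0.77 (3002646), -1.61 to 0.78 (3019836), -1.62 to 0.78 (3034775), -1.59 to 0.80 (3016904), -1.59 to 0.78 (3035680), -1.70 to 0.85 (3012800), -1.54 to 0.73 (3029386), -1.65 to 0.82 (3009352), -1.70 to 0.92 (3007157) and -1.56 to 0.81 (3014724). The range was -0.24 to 0.30 for chr17:3081450-3082785. For windows it was -0.039 to 0.052 on chromosome 2, -0.064 to 0.019 on 5, -0.41 to 0.078 on 6, -0.16 to 0.66 on 7, -0.012 to 0.57 on 8, -1.61 to 0.85 on 9, -0.054 to 0.19 on 10, -1.55 to 0.91 on 12, -0.25 to 0.037 on 15, -0.15 to 0.083 on 17 and -0.035 to 0.37 on 19. The windows of chromosomes 9 and 12 were summed with their pile-ups here. With all libraries their log2 differences were 0.00 (SE 1.62) and 0.09 (SE 1.25). The chromosome 12 sum without its pile-up was not refitted with a library left out.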
